A study of Mus musculus with 16 samples.

Results

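The Serpin family was examined in mouse hair follicle stem cell (HFSC) organoids. Its members were all genes whose symbol reads Serpin, a clade letter from a to i and a digit. GENCODE M21 held 68 such symbols, and Serpinb9h was added through its RefSeq synonym, which gave 69 members. The count table covered 32989 identifiers and listed 50 of the members, and 29 members reached a mean of 5 unique molecular identifier (UMI) counts per library and were tested among 19049 genes. The other 40 members were either not listed in the table (19 members) or fell below that mean (21 members).

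The data were 3′ RNA-seq counts from 16 libraries, made from epidermal cells of 4 C57BL/6J mice in telogen, the resting phase of the hair cycle. Cells were grown as 3D-3C organoids, a 3-dimensional HFSC culture, for 2 weeks. They were sorted on integrin α6 and CD34 into progenitors (α6+/CD34-) and HFSCs (α6+/CD34+), either untreated or after 72 h with N1-acetylspermidine (N1-AcSpd), an acetylated polyamine. Each of the 4 groups held 1 library from each mouse. A mouse number stands for a label code shared by all 4 groups, which is taken here as 1 animal. Both populations came out of the same type of culture, and the untreated libraries were the controls of the treatment comparisons. The titles of the untreated libraries carry WT (wild type), and the labels used here give no dose of N1-AcSpd. Library totals ranged from 15480075 to 29074855 UMI counts.

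Serpins are proteins that mostly inhibit serine or cysteine proteases. They present an exposed reactive centre loop as bait. After the protease cuts the loop, the serpin changes shape and traps the enzyme. Mammalian serpins fall into clades named by letter. Clade A holds mainly secreted plasma-type inhibitors, clade B the intracellular ovalbumin-type serpins that are abundant in keratinocytes, and the smaller clades include antithrombin (C), protease nexin (E), pigment epithelium-derived factor (F), C1 inhibitor (G), a collagen chaperone (H) and neuroserpin (I). In rodents, the Serpina3 and several Serpinb genes have multiplied into tandem arrays of copies. These copies are less alike in the loop, the stretch that sets which protease is bound, than over the coding sequence as a whole.

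By clade, 8 of 29 clade A members, 13 of 29 clade B members and all 3 clade E members were tested. Clades C, F, G, H and I gave 1 tested member each, and the single clade D member, heparin cofactor II (Serpind1), had a mean of 0.5625 counts and was not tested. All but 1 of the clade A genes lie on chromosome 12 (GRCm38, the mm10 build), between 103614786 and 104414329, and the other is on the X chromosome. Clade B is split into an array of 12 genes on chromosome 1, from 106861173 to 107610484, and an array of 17 genes on chromosome 13, from 32842092 to 34002794. The first gave 6 and the latter 7 tested members.

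The sequences that matter here are those of the loop region, since they show how far copies with separate count rows differ. The stretch of up to 72 coding bases (24 codons) that precedes the conserved serpin signature near the end of the protein was read from the GENCODE M21 transcripts on GRCm38. Capitals mark bases that differ from Serpina3n, or that have no partner in its sequence, copies with gaps are shorter, and all sequences run 5′ to 3′ on the coding strand.
Serpina3n (chr12:104406729-104414329, plus strand): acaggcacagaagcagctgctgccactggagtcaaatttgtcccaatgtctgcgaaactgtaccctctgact
Serpina3m (chr12:104338486-104394257, plus strand): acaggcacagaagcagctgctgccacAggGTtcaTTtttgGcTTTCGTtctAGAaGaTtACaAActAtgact
Serpina3k (chr12:104338486-104346144, plus strand): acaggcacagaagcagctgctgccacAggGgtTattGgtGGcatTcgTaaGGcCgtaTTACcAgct
Serpina3g (chr12:104236245-104241939, plus strand): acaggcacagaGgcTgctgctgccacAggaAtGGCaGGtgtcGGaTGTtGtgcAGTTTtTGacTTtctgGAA
Serpina3i (chr12:104263122-104269372, plus strand): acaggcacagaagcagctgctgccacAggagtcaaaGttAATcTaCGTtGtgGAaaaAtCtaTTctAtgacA

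The part aligned to the first 27 bases of the Serpina3n stretch, which covers the hinge of the loop, held 1 difference from Serpina3n in Serpina3m, Serpina3k and Serpina3i and 3 in Serpina3g. The part aligned to the remaining 45 bases held 21 differences in Serpina3m, 13 in Serpina3k, 17 in Serpina3i and 24 in Serpina3g, gaps not counted. Over the whole aligned coding sequence these genes were 83.79% to 85.17% identical to Serpina3n, and Serpina3k and Serpina3m were 91.99% identical to each other. Serpina3h is annotated as a transcribed pseudogene and has no coding sequence to show.

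The Serpinb6 copies of chromosome 13 differ in the same place. Capitals mark the bases of Serpinb6c that differ from Serpinb6a or have no partner in it.
Serpinb6a (chr13:33917918-34002794, minus strand): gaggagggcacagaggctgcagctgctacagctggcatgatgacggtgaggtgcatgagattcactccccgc
Serpinb6c (chr13:33879816-33905708, minus strand): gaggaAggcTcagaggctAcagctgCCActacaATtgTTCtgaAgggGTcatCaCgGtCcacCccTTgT
The coding sequences were 87.17% identical, against 72.31% in this stretch.

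Near-identical counts were looked for in every pair of members. Among the 406 pairs of tested members, none agreed within 5% or 1 count in all 16 libraries. The closest pair, Serpinb8 and Serpinb1a, lies on different chromosomes and differed by up to 45.37% in a library. Among all 1225 pairs of listed members, 24 met that limit, and the largest mean count in such a pair was 0.4375, so these were pairs of almost empty rows. Copies can still share tags. Of the 31-base stretches in the last 500 bases of the transcripts, which a 3′ assay reads, 43.62% of those of Serpina3i, 35.49% of Serpina3g and 18.4% of Serpina3h also occurred in another gene, mostly another Serpina3 copy. The share was 7.234% for Serpina3k, 3.609% for Serpina3m and 1.702% for Serpina3n. In clade B it reached 26.88% for Serpinb3b, 24.81% for Serpinb2 (all shared with Serpinb10), 19.77% for Serpinb6c, 18.97% for Serpinb6d and 13.38% for Serpinb1a. It was 0% for Serpinb5, Serpinb12 and Serpinb10. Counts of the members with high shares are therefore uncertain as to the copy they came from.

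**Figure D1:**
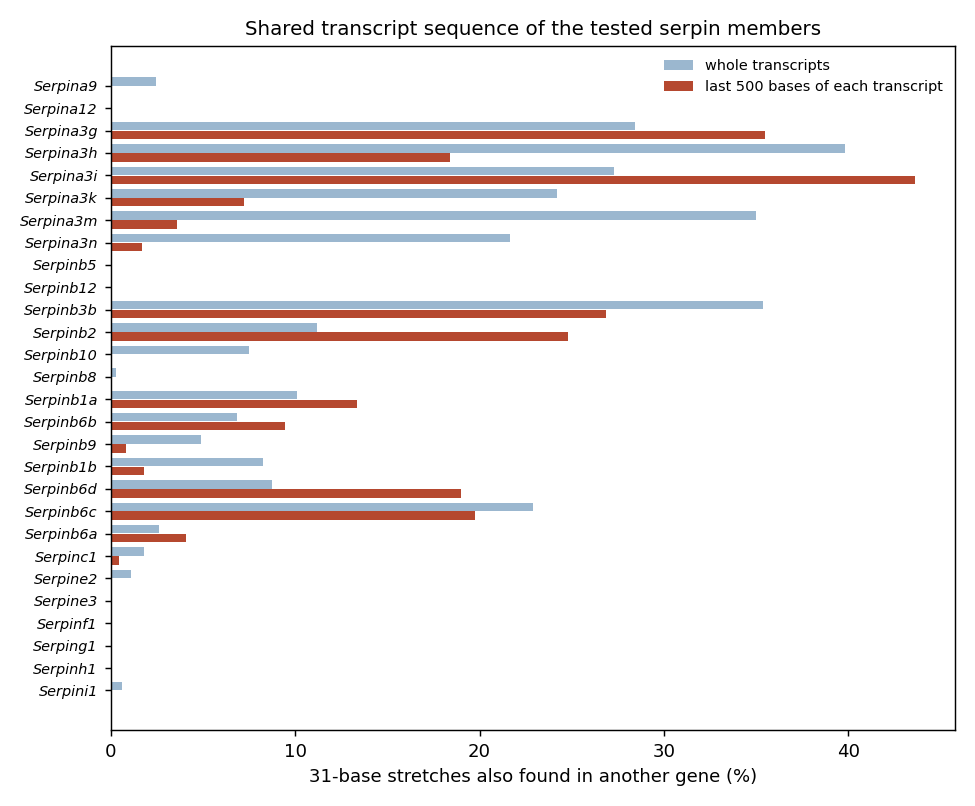
Percent of 31-base stretches of 28 tested members that also occur in a transcript of another gene, over whole transcripts (blue bars) and over the last 500 bases of each transcript (red bars). Serpina3i (43.62%) and Serpina3g (35.49%) have the longest red bars.

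Annotated gene bodies also overlap. Serpina3k and Serpina3m share a start on the same strand, Serpinb2 runs into Serpinb10 on the same strand, and Serpinb3b overlaps Serpinb3c and the pseudogene Gm15390. On the opposite strand, Serpinc1 overlaps Gm37072 and Zbtb37, Serpine3 overlaps Ints6, and Serpinb6a overlaps Ripk1, Nqo2 and 1110046J04Rik. Whether strand was used in counting is not given in the sources used here, so antisense reads cannot be told apart from these genes. The rows of Serpinc1 and Gm37072 (mean counts 106.9 and 93.44) lay within 24.47% of each other in every library.

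The sort was checked on its own genes. Cd34, the antigen used for sorting, stood at 3.19 ± 0.0942 CPM (UMI counts relative to the scaled library total) in untreated α6+/CD34- and at 49.9 ± 5.89 CPM in untreated α6+/CD34+ cells (SD, n = 4). Its log2 fold change was 3.97 untreated and 4.03 after N1-AcSpd. The other sort gene, integrin α6 (Itga6), went the other way and was called lower in α6+/CD34+ cells in both comparisons. Both populations were sorted as α6+. Basal keratin Krt14 stood at 4598 CPM or more in every library. Summed fibroblast markers (6 genes) reached at most 1.52 CPM in any library, and summed immune markers (6 genes, 5 of them listed) at most 5.91 CPM. Most of the latter was Itgam, which was lower in α6+/CD34+ cells (log2 fold changes -0.48 and -0.52), as was the fibroblast gene Col1a2 (-2.19 and -2.25). Adgre1 and Cdh5, defining markers of macrophages and endothelium, were not listed in the count table. The endothelial receptors Kdr and Tie1 reached at most 0.360 and 0.565 CPM, whereas Pecam1 stood at 1686 to 2054 CPM in all groups. The melanocyte markers (5 genes) summed to 28.0 to 36.1 CPM, most of it Mitf and Pmel. The part of these other markers in the results was not tested.

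The comparison of the sorted populations asked which serpins differ between progenitors and HFSCs. In untreated cells, 18 of the 29 tested members differed (edgeR quasi-likelihood test, Benjamini-Hochberg adjusted p under 0.05 over all genes), 10 higher and 8 lower in α6+/CD34+ cells. The background was high, since 32.1% of all tested genes passed the same test, 16.1% higher and 16.1% lower. In this background 3059 of 6123 called genes were higher in α6+/CD34+ cells, and 4861 of 6623 when libraries were scaled by their totals in place of TMM. After N1-AcSpd, 19 members differed, 10 higher and 9 lower, against a background of 33.3% of all genes, 16.5% higher and 16.8% lower (3147 of 6346 called genes higher, and 4792 of 6696 with library totals). With library totals the members split into 10 higher and 7 lower untreated, and 10 higher and 8 lower after N1-AcSpd. These comparisons use different libraries, but of the same 4 mice and in a shared fit, so they are not independent replicates. In both comparisons 17 members were called, 9 higher in both and 8 lower in both. The share of all genes called in both is not given here, so this overlap cannot be set against a background. Each called difference had the same sign in 4 of 4 mice. This follows wherever the groups do not overlap, and in untreated cells the uncalled Serpine2 and Serpinb1b did the same. Serpin counts made up 0.0787% of all UMI counts in untreated progenitors and 0.0659% in untreated HFSCs, and 0.0815% and 0.0673% after N1-AcSpd. Counts per library cannot tell fewer expressing cells from less RNA per cell in any of these sorted bulk samples.

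The directions differed between the Serpina3 genes and most called clade B members. All 6 tested Serpina3 genes were higher in α6+/CD34+ cells in both comparisons, while the clade A gene Serpina12 was lower. In clade B 7 of 13 members were lower and 1 higher without treatment, and 8 were lower and 2 higher with it. Over all genes 16.1% were called higher and 16.1% lower untreated, and 16.5% and 16.8% after N1-AcSpd. The median log2 fold change was 1.52 and 1.78 over the 8 clade A members and -0.94 and -0.40 over the 13 clade B members, untreated and N1-AcSpd respectively. The value of Serpinb6d, for which no fold change is given, ranked below the clade B median untreated, where its counts were lower in HFSCs, and above it after N1-AcSpd, where its progenitor libraries were all at 0. Over all tested genes the median was 0.02 and -0.0068. C1 inhibitor and the collagen chaperone were higher, and none of the tested members of clades C, E, F and I passed in either comparison.

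**Figure D2:**
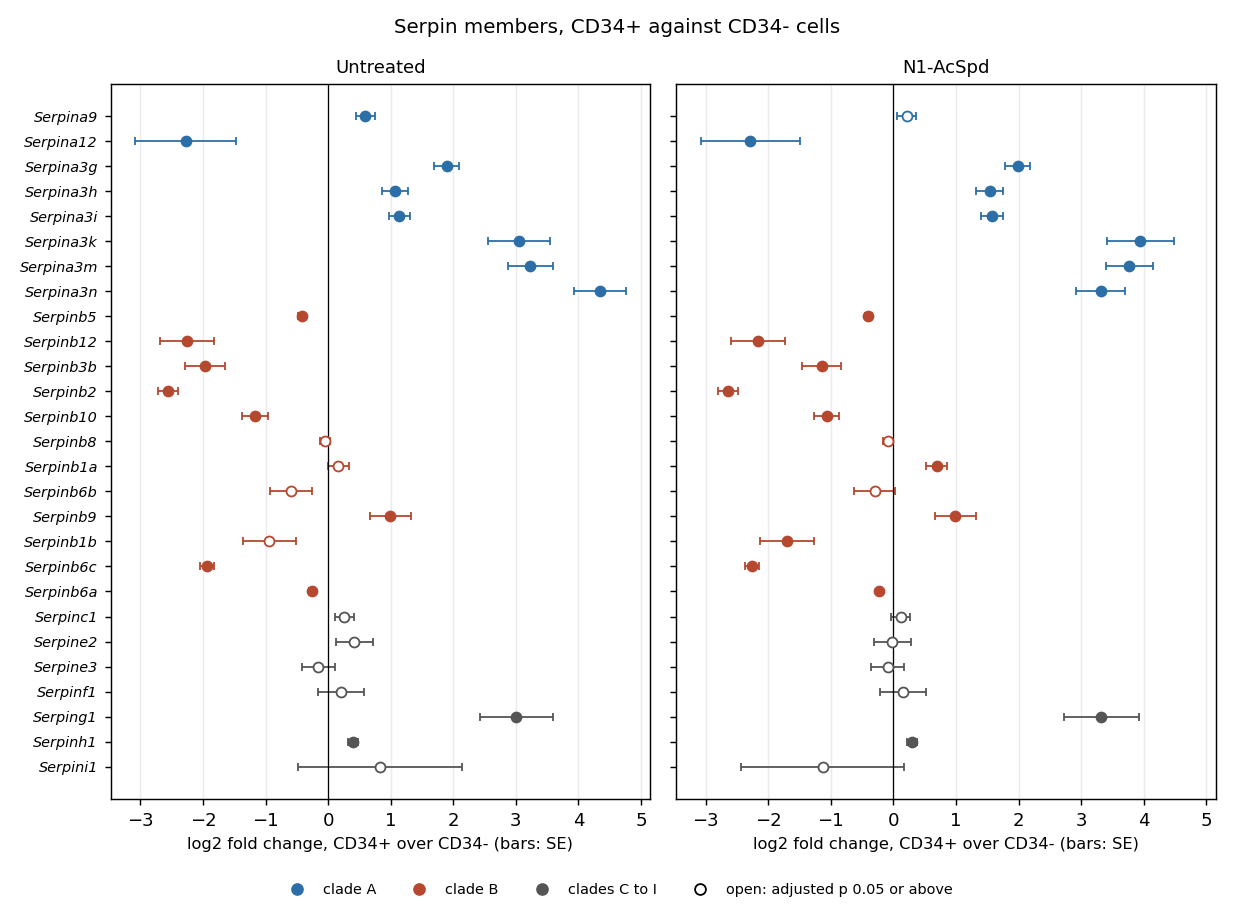
Log2 fold change of α6+/CD34+ over α6+/CD34- cells with its SE for 27 tested members, in untreated cells (left) and after N1-AcSpd (right). Filled points passed adjusted p under 0.05, and Serpinb6d is left out because its libraries were mostly at 0. The 6 Serpina3 genes sit to the right of 0 in both panels, between 1.07 and 4.34, and Serpinb2, Serpinb12, Serpinb3b, Serpinb10 and Serpinb6c sit to the left.

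Serpina3n, a secreted inhibitor related to human α1-antichymotrypsin, had the largest log2 fold change of the called members in untreated cells. Its levels in mice 1 to 4 were 0.0860, 0.511, 0.563 and 0.316 CPM in untreated α6+/CD34- cells, and 9.67, 5.98, 7.80 and 6.42 CPM in untreated α6+/CD34+ cells. After N1-AcSpd they were 0.577, 0.497, 0.190 and 0.574 CPM against 3.82, 4.04, 5.46 and 5.11 CPM. Every α6+/CD34+ library stood above every α6+/CD34- library. The log2 fold change was 4.34 (SE 0.41, edgeR adjusted p 3.17e-06) untreated and 3.31 (SE 0.39, adjusted p 1.82e-05) with N1-AcSpd.

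Serpina3g, which is known as an inhibitor of cathepsins in the cell, gave 2.92, 2.23, 2.64 and 1.35 CPM in untreated progenitors and 10.5, 8.11, 8.51 and 7.04 CPM in untreated HFSCs. With N1-AcSpd the values were 1.69, 1.42, 1.44 and 1.19 CPM against 5.87, 6.43, 5.09 and 5.40 CPM. The groups did not overlap in either comparison. Fold changes on the log2 scale were 1.90 (SE 0.20, edgeR adjusted p 8.02e-06) and 1.98 (SE 0.20, adjusted p 5.40e-06).

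Serpina3i stood at 4.94, 2.75, 3.03 and 3.79 CPM in untreated progenitors and 9.04, 7.07, 7.48 and 8.42 CPM in untreated HFSCs. With N1-AcSpd it stood at 3.01, 2.77, 2.20 and 2.54 CPM against 7.80, 7.85, 6.44 and 9.27 CPM. Here too the populations did not overlap. On the log2 scale the changes were 1.14 (SE 0.17, edgeR adjusted p 0.000187) and 1.57 (SE 0.17, adjusted p 9.94e-06). The pseudogene Serpina3h followed with 1.07 (SE 0.21) and 1.54 (SE 0.21).

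Serpina3k and Serpina3m rest on few counts in progenitors. Serpina3m had 4 to 10 counts per library in untreated progenitors and 39 to 73 in untreated HFSCs (log2 fold change 3.23, SE 0.36, edgeR adjusted p 1.43e-05). Serpina3k had 3 to 6 and 23 to 49 counts (log2 fold change 3.05, SE 0.50, edgeR adjusted p 0.000372). After N1-AcSpd the log2 fold changes were 3.77 (SE 0.38) and 3.94 (SE 0.53). In the shared span of these genes a tag of one cannot be told apart from a tag of the other, and whether such a tag was counted in one row, both or neither is not given in the sources used here. Summed over the 12 listed Serpina3 rows, the level was 8.29 ± 1.35 CPM in untreated progenitors and 31.8 ± 4.86 CPM in untreated HFSCs. After N1-AcSpd it was 5.61 ± 0.765 CPM and 24.5 ± 1.27 CPM (SD, n = 4).

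**Figure D3:**
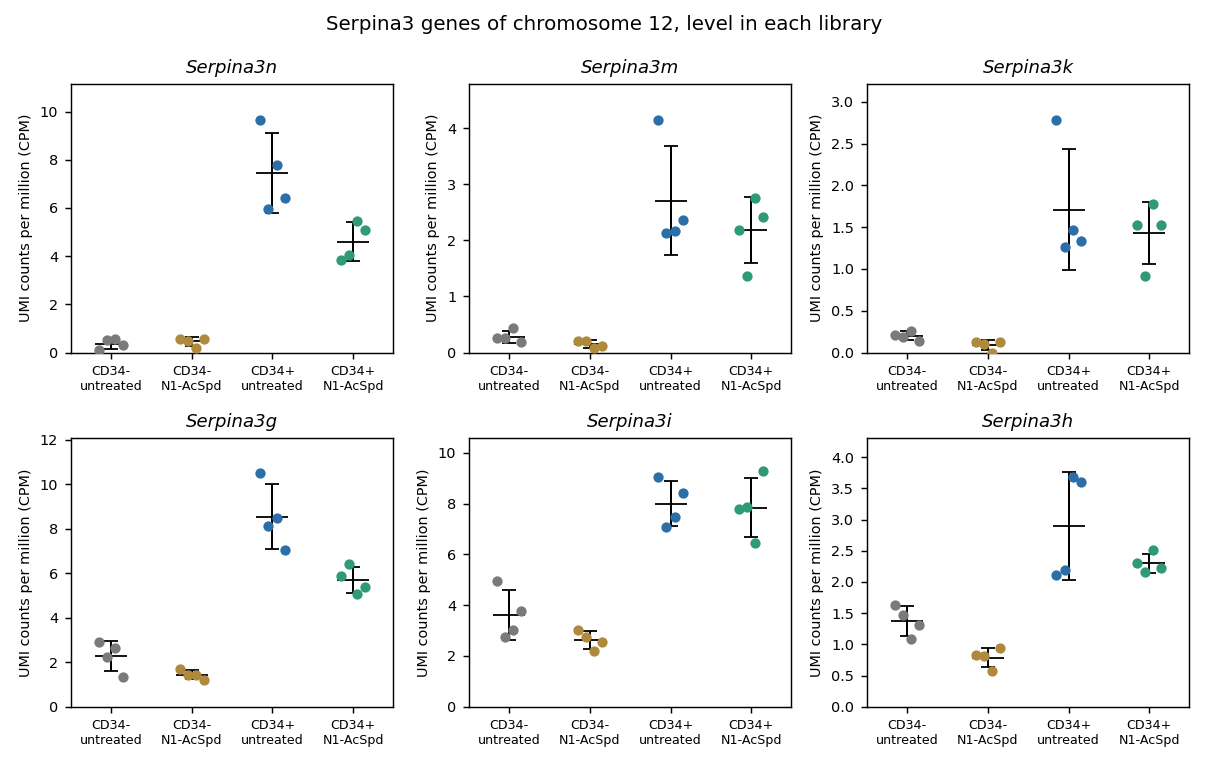
Level of the 6 tested Serpina3 genes in each library, in CPM on linear axes from 0. Points are libraries of the 4 mice in each group, horizontal marks are means and bars are SD (n = 4). In each panel all 8 α6+/CD34+ libraries lie above the α6+/CD34- libraries of the same treatment.

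The remaining tested clade A genes behaved apart. Serpina9, named for its expression in germinal centre B cells, rose in untreated HFSCs by 0.60 (SE 0.15, edgeR adjusted p 0.0132) on the log2 scale. With N1-AcSpd the difference was 0.21 (SE 0.15, adjusted p 0.491). The call in untreated cells was lost without the α6+/CD34+ library of mouse 3 (log2 fold change 0.48, adjusted p 0.0877) and in DESeq2 (adjusted p 0.0598). Serpina12, vaspin, an adipokine that inhibits kallikrein 7, was lower in HFSCs, by log2 fold changes of -2.27 (SE 0.81, edgeR adjusted p 0.0455) and -2.28 (SE 0.79, adjusted p 0.0375). It had 0 to 16 counts per library. Its mean of 5.125 counts was just above the filter of 5 and rested mostly on the progenitor libraries. With mouse as a block the adjusted p in untreated cells was 0.0584. Leaving out any of 12 libraries in turn lost that call (adjusted p 0.0503 to 0.101, log2 fold change -2.57 to -1.88), and leaving out any of 5 libraries lost the call under N1-AcSpd (0.0514 to 0.103).

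In clade B, the chromosome 1 array was lower in HFSCs. Of its 6 tested genes, 5 were called lower in both comparisons (Serpinb5, Serpinb12, Serpinb3b, Serpinb2 and Serpinb10) and Serpinb8 was called in neither. Over all genes 16.1% were called lower untreated and 16.8% after N1-AcSpd, and the share lower in both is not given here. The chromosome 13 array was mixed, with 1 of 7 higher and 2 lower untreated, and 2 higher and 3 lower after N1-AcSpd. Its untreated counts were too few to be set apart from the 16.1% of all genes called in each direction.

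Serpinb2, plasminogen activator inhibitor 2, inhibits urokinase and is a product of differentiating keratinocytes. It stood at 46.0, 54.0, 45.4 and 56.0 CPM in untreated progenitors and at 6.03, 10.4, 9.16 and 8.73 CPM in untreated HFSCs. With N1-AcSpd it stood at 47.6, 49.0, 50.8 and 50.8 CPM against 7.91, 8.53, 9.32 and 5.99 CPM. Every progenitor library lay several times above every HFSC library. Its log2 fold changes were -2.55 (SE 0.16, edgeR adjusted p 2.42e-07) and -2.64 (SE 0.16, adjusted p 1.23e-07).

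Serpinb10, bomapin, is annotated as a polymorphic pseudogene and begins inside Serpinb2. It gave 4.34, 4.21, 4.50 and 4.37 CPM in untreated progenitors and 1.99, 1.81, 2.33 and 1.59 CPM in untreated HFSCs. With N1-AcSpd it gave 3.67, 2.94, 4.10 and 3.57 CPM against 2.30, 0.910, 1.78 and 1.76 CPM. Progenitor libraries were higher throughout, and the log2 fold changes were -1.17 (SE 0.21, edgeR adjusted p 0.000666) and -1.07 (SE 0.21, adjusted p 0.00114).

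Serpinb12, an inhibitor of trypsin-like proteases, fell from 13 to 43 counts per library in untreated progenitors to 1 to 8 in untreated HFSCs (log2 fold change -2.25, SE 0.43, edgeR adjusted p 0.0012). The value after N1-AcSpd was -2.16 (SE 0.43). Serpinb3b, a squamous cell carcinoma antigen homologue that inhibits papain-like or serine proteases, gave 26 to 72 counts in untreated progenitors and 6 to 13 in untreated HFSCs. Its log2 fold changes were -1.97 (SE 0.32, edgeR adjusted p 0.000379) and -1.15 (SE 0.32, adjusted p 0.0122). Of these 5 genes, maspin (Serpinb5), a keratinocyte serpin without known protease inhibition, changed by the smallest fold. It stood at 470 ± 32.9 CPM and 350.0 ± 21.4 CPM in untreated progenitors and HFSCs (SD, n = 4), and its log2 fold changes were -0.42 (SE 0.06, edgeR adjusted p 6.26e-05) and -0.40 (SE 0.06).

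Without Serpinb5, which carried most of its counts, the chromosome 1 array summed to 71.0 ± 5.48 CPM in untreated progenitors and 23.2 ± 2.21 CPM in untreated HFSCs. After N1-AcSpd the sums were 70.1 ± 1.01 and 23.9 ± 1.37 CPM (SD, n = 4). The suprabasal differentiation markers moved with this array. All 10 of 10, among them Sbsn, Krtdap, Dsg1a and Ivl, were lower in HFSCs in both comparisons, beside 16.1% and 16.8% of all genes called lower. This list was chosen with earlier results of these data known. The summed level of these markers was 1193 to 1617 CPM in untreated progenitors and 319 to 354 CPM in untreated HFSCs. After N1-AcSpd the sums were 1420 to 1904 CPM and 337 to 442 CPM. The part of differentiated cells in the clade B result was not tested.

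**Figure D4:**
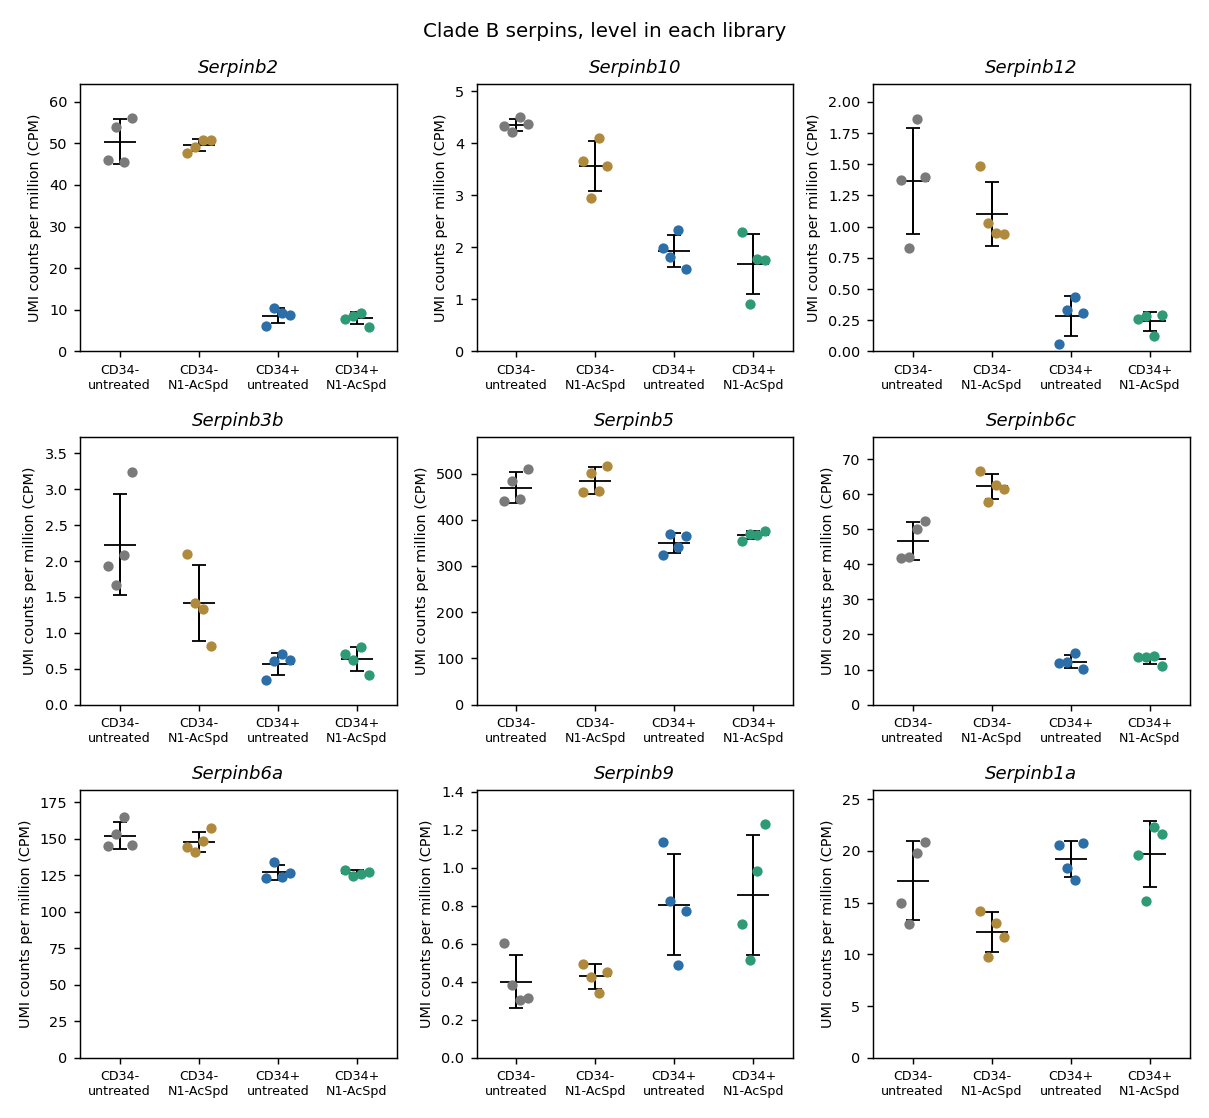
Level of 9 clade B genes in each library, in CPM on linear axes from 0, with group means (horizontal marks) and SD (bars, n = 4). The Serpinb2, Serpinb10, Serpinb12, Serpinb3b, Serpinb5 and Serpinb6c levels are lower in every α6+/CD34+ library than in the α6+/CD34- libraries of the same treatment, while Serpinb9 and Serpinb1a have higher means in α6+/CD34+ cells.

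On chromosome 13, Serpinb6c stood out. Its levels were 41.9, 42.2, 50.04 and 52.4 CPM in untreated progenitors and 11.9, 12.2, 14.6 and 10.2 CPM in untreated HFSCs. With N1-AcSpd they were 66.6, 57.9, 62.7 and 61.6 CPM against 13.5, 13.6, 13.8 and 11.03 CPM. The populations were far apart in every mouse. The log2 fold changes were -1.93 (SE 0.11, edgeR adjusted p 1.63e-07) and -2.26 (SE 0.11, adjusted p 2.48e-08). Its neighbour Serpinb6a, an intracellular inhibitor of cathepsin G and other serine proteases, fell by 0.26 (SE 0.05, edgeR adjusted p 0.00057) and by 0.22 (SE 0.05, adjusted p 0.00164) on the log2 scale. With library totals in place of TMM scaling the latter call was lost (log2 fold change -0.11, adjusted p 0.066).

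Serpinb9, the granzyme B inhibitor, was higher in HFSCs by 0.99 in both comparisons (SE 0.33 and 0.32, edgeR adjusted p 0.0334 and 0.0302), on 6 to 21 counts per library. The untreated call was lost when any of 6 libraries was left out (adjusted p 0.0603 to 0.107) and in DESeq2 (adjusted p 0.0613). The N1-AcSpd call was lost without any of 5 libraries (adjusted p 0.0559 to 0.105). Serpinb1a, an inhibitor of neutrophil elastase-type proteases, was called higher after N1-AcSpd, by 0.69 (SE 0.16, edgeR adjusted p 0.00474) on the log2 scale, and its value was 0.16 (SE 0.16, adjusted p 0.517) untreated. Serpinb1b was lower after N1-AcSpd, at -1.70 on that scale (SE 0.43, edgeR adjusted p 0.00706), with -0.94 (SE 0.43, adjusted p 0.113) untreated. Without the untreated α6+/CD34+ library of mouse 3 the latter became -1.52 (adjusted p 0.00954). For neither gene did the difference between the comparisons pass the interaction test. Serpinb6b was not called in either comparison (log2 fold changes -0.59 and -0.30).

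Serpinb6d was counted in few libraries. It had 31, 19, 30 and 0 counts in untreated progenitors of mice 1 to 4, 0 in all 4 progenitor libraries after N1-AcSpd, 0, 6, 0 and 0 in untreated HFSCs and 4, 0, 0 and 0 in treated HFSCs. It was thus present in 3 libraries of the first group and nearly absent elsewhere, and no fold change is given. Its mean of 5.625 counts passed the filter of 5 through those 3 libraries. The call of untreated HFSCs against progenitors, missed with an edgeR adjusted p of 0.103, was made without the untreated progenitor library of mouse 4 (0.0451) or the untreated HFSC library of mouse 2 (0.0421).

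The promoters of the lower chromosome 1 genes were compared because these genes moved together. RefSeq (GRCm38.p6) entries, which cover 250 bases before the start site to 50 after it, were found for 22 tested members. The letters TGANTCA, a looser form of the AP-1 site TGASTCA (S is C or G), read the same on both strands. They occurred in 5 of the 22 members, all in the chromosome 1 array (Serpinb5, Serpinb12, Serpinb2, Serpinb10 and Serpinb8). The match was TGAATCA in Serpinb5, Serpinb2 and Serpinb10, TGATTCA in Serpinb12 and TGAGTCA in Serpinb8. Only Serpinb8, which was not called, thus held the stricter form. The entry of Serpinb3b, which was lower, did not hold TGANTCA. Among all 32851 promoter entries, 7.808% held TGANTCA. A member counted as holding it where any of its entries did, and the 22 members had 26 entries. Serpinb12 has a further entry (chr1:106938707-106939006) without a match, and a further entry of Serpinb2 (chr1:107511260-107511559) overlaps the one shown and holds the same match. The entries of the 4 genes of this array that were lower with an absolute log2 fold change above 1 in both comparisons are shown, that of Serpinb3b without a match, with every match to this motif in capitals, and also the letters TTCNNNGAA, a STAT-type motif that 8.298% of all promoters hold and that was found in Serpina3g, Serpina3i, Serpinb2 and Serpinb6a.
Serpinb2 (chr1:107511173-107511472, plus strand): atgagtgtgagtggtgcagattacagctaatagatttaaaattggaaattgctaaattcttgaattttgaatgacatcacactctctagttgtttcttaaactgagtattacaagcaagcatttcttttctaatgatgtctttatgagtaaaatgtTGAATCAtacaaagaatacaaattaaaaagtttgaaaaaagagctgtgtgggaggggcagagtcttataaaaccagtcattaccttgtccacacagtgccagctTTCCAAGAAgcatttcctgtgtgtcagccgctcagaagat
Serpinb10 (chr1:107528753-107529052, plus strand): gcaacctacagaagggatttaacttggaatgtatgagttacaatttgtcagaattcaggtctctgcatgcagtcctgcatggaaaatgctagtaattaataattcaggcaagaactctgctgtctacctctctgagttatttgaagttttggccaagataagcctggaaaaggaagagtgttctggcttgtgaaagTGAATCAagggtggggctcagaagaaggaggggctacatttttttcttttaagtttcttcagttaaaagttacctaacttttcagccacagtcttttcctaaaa
Serpinb12 (chr1:106934199-106934498, plus strand): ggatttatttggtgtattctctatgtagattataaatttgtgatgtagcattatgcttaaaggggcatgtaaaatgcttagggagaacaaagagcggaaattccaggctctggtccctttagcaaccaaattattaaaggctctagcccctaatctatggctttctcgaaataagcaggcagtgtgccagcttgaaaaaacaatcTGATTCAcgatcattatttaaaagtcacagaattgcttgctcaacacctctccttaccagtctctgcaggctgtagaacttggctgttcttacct
Serpinb3b (chr1:107161065-107161364, minus strand): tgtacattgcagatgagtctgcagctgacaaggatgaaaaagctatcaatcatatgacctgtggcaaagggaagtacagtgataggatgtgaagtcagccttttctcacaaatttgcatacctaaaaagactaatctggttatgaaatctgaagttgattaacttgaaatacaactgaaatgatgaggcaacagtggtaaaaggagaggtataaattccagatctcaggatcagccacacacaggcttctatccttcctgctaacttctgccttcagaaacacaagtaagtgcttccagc
The first base of the TGANTCA match lay 94 bases before the start site in Serpinb2, 54 in Serpinb10 and 45 in Serpinb12, counted in the entries shown. These are matches of letters, and binding was not measured.

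C1 inhibitor (Serping1), which restrains complement C1 and plasma kallikrein, was higher in HFSCs on few counts. In untreated cells it had 3, 0, 1 and 2 counts in progenitors and 11, 12, 9 and 12 in HFSCs. After N1-AcSpd it had 0, 2, 1 and 1 against 9, 8, 9 and 7. No progenitor library reached the lowest HFSC library. The mean of Serping1 over all libraries, 5.4375 counts, was just above the filter of 5 and rested mostly on the HFSC libraries. The log2 fold changes were 3.01 (SE 0.58, edgeR adjusted p 0.00123) and 3.32 (SE 0.60, adjusted p 0.000679).

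Serpinh1 (HSP47), the endoplasmic reticulum chaperone of procollagen and a serpin that inhibits no protease, rose modestly. It stood at 27.6, 27.9, 24.1 and 28.1 CPM in untreated progenitors and at 33.6, 34.9, 35.2 and 38.2 CPM in untreated HFSCs. With N1-AcSpd it stood at 24.1, 26.3, 23.6 and 29.6 CPM against 31.7, 32.0, 29.1 and 34.5 CPM, where the ranges overlapped. The log2 fold changes were 0.40 (SE 0.08, edgeR adjusted p 0.00131) and 0.30 (SE 0.08, adjusted p 0.00803). Of 12 other collagen folding enzymes, 4 were higher and 1 lower in untreated HFSCs, and 5 were higher and none lower after N1-AcSpd, beside the 32.1% and 33.3% of all genes called in either direction. Called in both were Plod1, a lysyl hydroxylase (1.06 and 1.35), P3h1 (0.75 and 0.69) and Crtap (0.25 and 0.32), partners in prolyl 3-hydroxylation, and P4ha1, a prolyl 4-hydroxylase subunit (0.23 and 0.46), as log2 fold changes. The medians over the 12 genes were 0.11 and 0.22, above the 0.02 and -0.0068 of all genes.

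The remaining clades did not pass in either population comparison. Protease nexin 1 (Serpine2), which inhibits thrombin and plasminogen activators at the cell surface, gave 13.03, 21.5, 11.8 and 18.8 CPM in untreated progenitors and 15.9, 22.7, 18.1 and 30.2 CPM in untreated HFSCs. With N1-AcSpd it gave 15.6, 30.9, 20.4 and 28.9 CPM against 15.3, 23.8, 21.2 and 34.6 CPM. The groups overlapped throughout, while mice 2 and 4 were above mice 1 and 3 in every group. In the labels, the codes of mice 1 and 3 begin with X and those of mice 2 and 4 with Y, without a stated meaning. The log2 fold changes were 0.42 (SE 0.30, edgeR adjusted p 0.33) and -0.02 (SE 0.29, adjusted p 0.986). With mouse as a block the former was called (0.41, adjusted p 0.0274). Serpine3 was not called, with log2 fold changes of -0.15 untreated and -0.09 after N1-AcSpd.

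Antithrombin (Serpinc1) gave 4.26, 4.02, 4.37 and 4.51 CPM in untreated progenitors and 3.58, 4.61, 5.64 and 6.68 CPM in untreated HFSCs. With N1-AcSpd it gave 4.21, 5.18, 5.97 and 5.25 CPM against 5.53, 5.75, 5.52 and 5.52 CPM. The untreated HFSC libraries were the most spread, and the log2 fold changes were 0.26 (SE 0.15, edgeR adjusted p 0.226) and 0.11 (SE 0.15, adjusted p 0.637). Without the untreated HFSC library of mouse 1 the former was 0.39 and was called (adjusted p 0.0274).

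Pigment epithelium-derived factor (Serpinf1), a secreted serpin that inhibits blood vessel growth and no protease, gave 1.12, 2.30, 4.33 and 1.26 CPM in untreated progenitors and 2.62, 3.02, 2.55 and 2.26 CPM in untreated HFSCs. With N1-AcSpd it gave 1.94, 2.09, 3.23 and 1.89 CPM against 1.63, 3.24, 2.51 and 2.82 CPM. The groups overlapped and no difference passed (log2 fold changes 0.21 and 0.15, SE 0.37 and 0.36). Neuroserpin (Serpini1), an inhibitor of tissue plasminogen activator, was counted or missing library by library. It had 26, 0, 23 and 0 counts in untreated progenitors and 0, 19, 24 and 29 in untreated HFSCs. After N1-AcSpd it had 24, 42, 34 and 21 counts in progenitors and 27, 0, 0 and 18 in HFSCs. Libraries with 0 counts occurred in 3 groups, and its edgeR adjusted p was 0.712 and 0.584.

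The proteases and receptors with which serpins interact were read from lists. Of 14 tested target proteases and plasminogen system genes, 7 were lower and 1 was higher in HFSCs in each comparison, beside 16.1% and 16.8% of all genes called lower and 16.1% and 16.5% called higher, and their median log2 fold change was -0.25 and -0.35. Of those lower in both, the 4 with the smallest p in untreated cells included the membrane serine proteases Tmprss4 (log2 fold changes -2.27 and -2.24) and Tmprss11e, which was at 0 in all untreated HFSC libraries and at 0.172 to 0.383 CPM in untreated progenitors. With none counted in untreated HFSCs, Tmprss11e reached the filter mean of 5 counts only through the other groups. The others of these 4 genes were caspase 8 (-0.45 and -0.41) and Tmprss13 (-0.60 and -0.66). Ordered by p after N1-AcSpd, cathepsin L (Ctsl, -0.32 and -0.44) would stand among them. Caspase 1 was higher (0.91 and 1.16). Of 12 receptors and cofactors, 6 were lower and none higher untreated, and 5 were lower and 1 higher after N1-AcSpd, beside the same background, with medians of -0.16 in both. Of those lower in both, the 4 with the smallest p in untreated cells were the urokinase receptor Plaur (-1.64 and -1.55), the protein C receptor Procr (-1.60 and -1.40), syndecan 1 (Sdc1, -0.51 and -0.52) and Pnpla2, a lipase that binds pigment epithelium-derived factor (-0.52 and -0.33). After N1-AcSpd the p of thrombomodulin (Thbd, -1.59 and -2.03), also lower in both, was smaller than that of Pnpla2. Plg (plasminogen) and Vtn (vitronectin), both made mainly by the liver, were not listed in the count table. Of the 25 genes on the protease list, 19 were in the count table and 14 were tested. Cathepsin G (Ctsg), neutrophil elastase (Elane), the granzymes Gzma and Gzmb and protein C (Proc) were also absent from the count table. None of the genes in these lists passed a treatment comparison.

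The treatment comparison asked whether N1-AcSpd changed serpin levels within a population. None of the 29 members passed in α6+/CD34- cells, where 0.614% of all genes did, or in α6+/CD34+ cells, where 0.325% did. Unadjusted p-values under 0.05 were found for 8 and 3 of the 29 members, beside 2593 and 2505 of the 19049 genes. DESeq2 called 1 member in α6+/CD34- cells and 0 in α6+/CD34+ cells. The 8 in progenitors were Serpinb6c and Serpinb8, with higher values, and Serpina3h, Serpina3g, Serpina3i, Serpinb1a, Serpinb3b and Serpinb6d, with lower values. The 3 in HFSCs were Serpina3g, Serpina9 and Serpinb8.

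In progenitors, the smallest p among members with a higher value belonged to Serpinb6c. The 4 treated libraries (57.9 to 66.6 CPM) all lay above the untreated ones (41.9 to 52.4 CPM). The log2 fold change was 0.42 (SE 0.11), the unadjusted p 0.00179 and the edgeR adjusted p 0.0998, and DESeq2 called it with an adjusted p of 0.00376. Among members with a lower value, Serpina3h gave 1.63, 1.47, 1.08 and 1.31 CPM untreated and 0.825, 0.816, 0.570 and 0.943 CPM treated. It was lower in all 4 mice without overlap (log2 fold change -0.80, SE 0.21, edgeR adjusted p 0.114). The value of Serpina3g was -0.67 (SE 0.20, adjusted p 0.15), which passed only when the untreated progenitor library of mouse 4 was left out (-0.86, adjusted p 0.0403). Serpinb1a had -0.49 (SE 0.16, edgeR adjusted p 0.19).

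In HFSCs, Serpina3g had the smallest p. Its 4 treated libraries (5.09 to 6.43 CPM) lay below all untreated ones (7.04 to 10.5 CPM), at a log2 value of -0.58 (SE 0.19, edgeR adjusted p 0.216). Serpinb8, the furin-inhibiting clade B member, had the smallest p among members with a higher value. Its levels in HFSCs were 11.8, 10.03, 12.9 and 12.1 CPM untreated and 13.4, 12.3, 13.3 and 14.2 CPM treated. In progenitors they were 11.6, 11.1, 13.5 and 12.3 CPM and 15.3, 13.8, 13.5 and 14.0 CPM. The HFSC ranges overlapped, and the log2 fold change was 0.18 (SE 0.08, edgeR adjusted p 0.347). Serpina9 was lower in 4 of 4 mice, without overlap, at -0.39 (SE 0.15, edgeR adjusted p 0.353). Serpina3h in HFSCs gave 2.10, 2.19, 3.68 and 3.60 CPM untreated and 2.30, 2.16, 2.51 and 2.23 CPM treated, with -0.33 (SE 0.20, edgeR adjusted p 0.536).

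Over the 6 Serpina3 genes the median log2 fold change of treatment was -0.73 in progenitors and -0.32 in HFSCs, against 0.00012 and -0.014 for all genes. Serpina3n was the exception in progenitors, at 0.33 (SE 0.43). As none of these genes passed the test, the values describe these libraries and are not called changes.

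**Figure D5:**
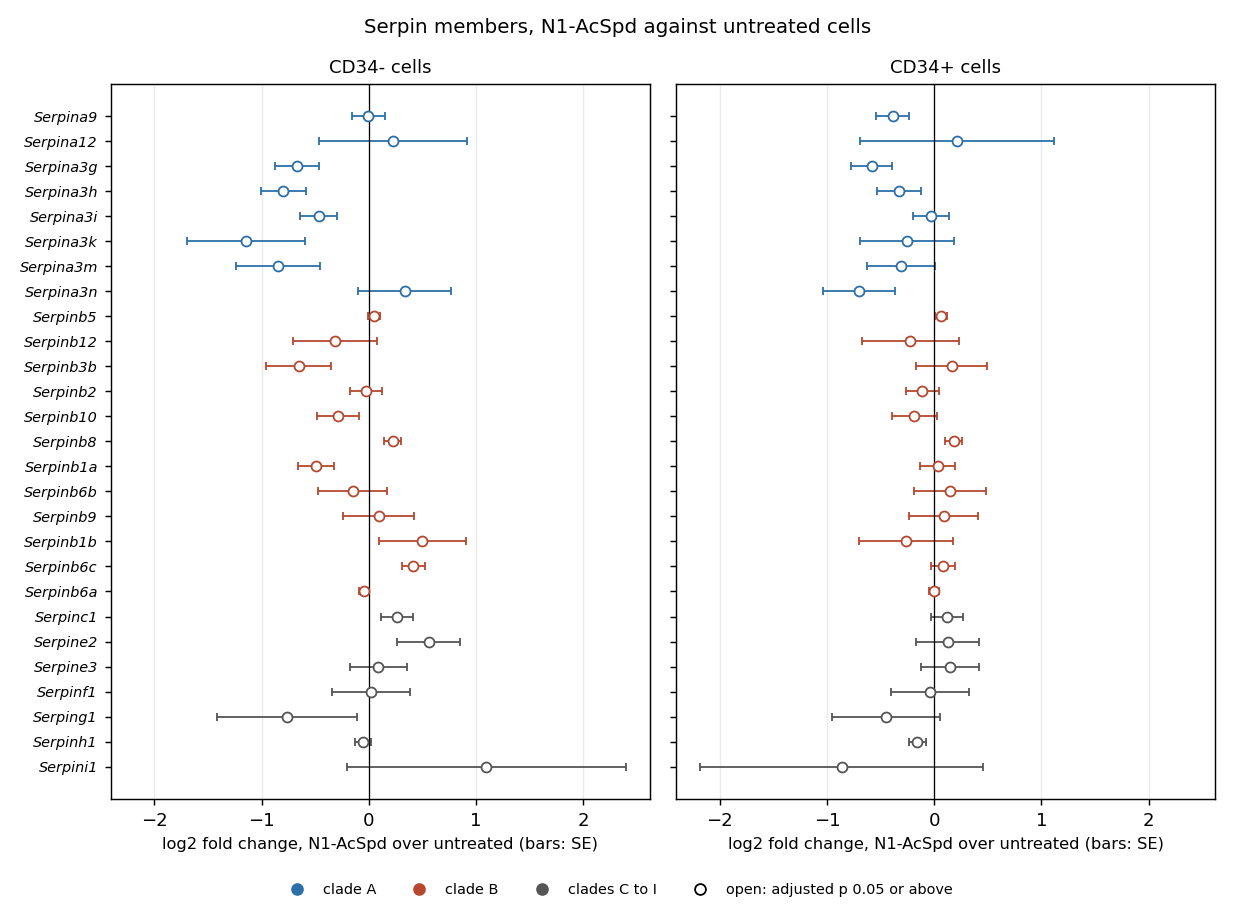
Log2 fold change of N1-AcSpd over untreated cells with its SE for 27 tested members, in α6+/CD34- (left) and α6+/CD34+ (right) cells. All points are open, since no member passed, and Serpinb6d is left out. The Serpina3 genes lie between -1.14 and 0.33 on the left and between -0.70 and -0.03 on the right.

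The interaction, the difference between the population effects with and without N1-AcSpd, was called for 0 of the 29 members, and the background was 0.0% of all genes. At an unadjusted p under 0.05 there were 3 members and 799 genes, and DESeq2 called 0 members. The members were Serpinb6d, whose treated progenitor libraries were all at 0, Serpinb1a (interaction log2 value 0.53, SE 0.23, unadjusted p 0.0391) and Serpinb6c (-0.33, SE 0.15, unadjusted p 0.0472). Their adjusted p in edgeR was 1.00.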

How the data were processed

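RNA was measured in 16 libraries, in 4 groups of 4 mice. The deposited values are raw counts of unique UMIs per gene. The authors demultiplexed reads with FLEXBAR, mapped read 2 to mm10 with kallisto (0.45.0), assigned tags with BEDTools intersect and counted unique UMIs in R. Annotation release and use of strand are not given in the sources used here, and tags shared by copies may be split between them. The table had 32989 identifiers, of which 62 were absent from GENCODE M21, and 156050 empty cells were read as 0.

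The 19049 genes whose mean count was 5 or more entered 1 fit over all 16 libraries with edgeR 4.0.16 (quasi-likelihood test, TMM scaling) in R 4.3.3, with Benjamini-Hochberg adjustment over all genes and a threshold of 0.05. SE was the absolute log2 fold change over the square root of F. CPM used TMM-scaled totals. Totals of 15480075 to 29074855 counts limit precision for members with few counts. Alternatives were other scalings and filters, DESeq2 1.42.0, only the compared groups, a mouse block, a fold threshold, and leaving out libraries or mice. The fit was tested on simulated data.

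The pairing comes from the labels, which name the same animal in all groups. Deviations of the 24 same-mouse pairs had correlations of -0.088 to 0.118 (mean 0.024). No 2 libraries of a group agreed within sampling noise (lowest chi-square per degree of freedom 25.4).

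The members and the gene lists were chosen with earlier results of these data known. Every tested member could be named, and 1 of them is counted but not reported here by name. Values in each library were printed for members called between cell types with an absolute log2 fold change of at least 1 and a mean count of at least 50, for the smallest p in each direction of treatment and interaction, and otherwise for the member with the highest mean count of a clade. From each list, genes called in both cell type comparisons were named in order of p, at most 4 in each direction. Loop stretches came from GENCODE M21 transcripts and promoters from RefSeq (GRCm38.p6), which matched 22 of the 29 tested members.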

Additional observations from a re-analysis of the deposited data

Results flagged for a closer look

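Among the 15 members whose values were given for every library, the highest or lowest of the 4 libraries stood apart from the others in 7 of 60 groups, by Dixon's criterion. Chance gives about 1 in 20 for normally spread values, a rate that groups with many 0 values need not follow. A group with all but 1 library at 0, as for Serpinb6d in α6+/CD34+ cells, is always flagged. The N1-AcSpd α6+/CD34- group of Serpinb6d was all at 0 and could not be flagged. For Serpinb6d, the untreated α6+/CD34- library of mouse 4 was at 0 CPM while the other 3 had counts, the untreated α6+/CD34+ library of mouse 2 stood at 0.329 CPM and the N1-AcSpd α6+/CD34+ library of mouse 1 at 0.148 CPM while the others of their groups were at 0. Serpinb6c was low in the N1-AcSpd α6+/CD34+ library of mouse 4 (11.03 CPM). Serpinc1 was high in the N1-AcSpd α6+/CD34+ library of mouse 2 (5.75 CPM). Serpinf1 was high in the N1-AcSpd α6+/CD34- library of mouse 3 (3.23 CPM). Serpinh1 was low in the untreated α6+/CD34- library of mouse 3 (24.1 CPM).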

How the results depend on the processing

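The number of members called between cell types was 18 in untreated and 19 in N1-AcSpd cells. It ranged from 15 to 18 and from 15 to 19 when a library or a mouse was left out, and stayed in these ranges under the other alternatives. With mouse as a replicate block the counts were 18 (11 higher, 7 lower) and 19, with Serpina12 lost (adjusted p 0.0584) and Serpine2 gained (0.0274) in untreated cells, and no other named call changed. The same block raised the treatment calls over all genes from 117 to 349 in α6+/CD34- and from 62 to 152 in α6+/CD34+ cells, and called 0 members. DESeq2 called 558 and 431 genes there.

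Treatment calls in α6+/CD34- cells rose from 0 to 1 with DESeq2 (Serpinb6c), and ranged from 0 to 1 when libraries were left out (Serpina3g, without the untreated library of mouse 4). The cause was not tested. In α6+/CD34+ cells and for the interaction the count was 0 in every alternative run, while over all genes DESeq2 called 71 in the interaction against 0 in edgeR.

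For 43 results (the 37 called cell type differences and the 6 members with the smallest p in each direction of treatment and interaction), 1156 comparisons with alternatives gave 1092 on the same side of the threshold, 63 that fell below it, 1 that passed it (Serpinb6c, treatment, DESeq2) and 0 of opposite sign. Outside these 43, calls were gained for Serpinb1b, Serpinc1, Serpinb6d and Serpine2 between untreated cell types and for Serpina3g under treatment of α6+/CD34- cells, each in at most 2 alternatives. Of 37 called results, 28 kept their call throughout. The others were Serpina12 and Serpinb9 in both comparisons, Serpina9 in untreated cells, and in N1-AcSpd cells Serpinb6a with library totals and, with a whole mouse left out, Serpinb1b (adjusted p up to 0.0573), Serpinb3b (up to 0.0719) and Serpinh1 (up to 0.0729). Library totals moved the median log2 fold change of all genes to 0.14 and 0.11. Members with few counts, such as Serping1, Serpina12 and Serpinb9, are limited by depth.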
